A study of Mus musculus with 2 samples.

Results

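Mbnl2 binding was examined at 9 genes that govern how many mitochondria a muscle fibre makes and how it burns fat. The set holds the coactivators Ppargc1a and Ppargc1b, the estrogen-related receptors Esrra, Esrrb and Esrrg, the peroxisome proliferator-activated receptors Ppara and Ppard, and the factors Nrf1 and Tfam. The genes were chosen by name, with earlier results of these data known, and the mm9 GENCODE vM1 annotation holds all 9 among its 22372 protein-coding genes. Every tag that overlapped one of them on the gene's strand was counted and assigned to the 3' UTR, 5' UTR, coding exon, other exon or intron, in that order of priority.

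The tags come from HITS-CLIP, in which UV light joins a protein covalently to bound RNA, RNase A trims that RNA to short fragments, and the fragments immunopurified with the protein are sequenced. Quadriceps muscle of WT and Mbnl1-/- (Mbnl1 KO) mice was used, with monoclonal antibody 3B4 against Mbnl2. All mice were 15 to 16 weeks old and are labelled C57BL/6. The authors merged the tags of 3 mice into 1 table per genotype, which leaves no measure of variation between mice. No test between genotypes was made, and each interval given here covers only counting error, for these libraries rather than for the genotypes. The labels name RNase A at 38.6 and 0.0386 U/ml, and the tables do not tell the 2 concentrations apart.

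PGC-1α and PGC-1β, the products of Ppargc1a and Ppargc1b, are coactivators. They do not bind DNA themselves but dock on nuclear receptors, chiefly the estrogen-related receptors and the PPARs, and on Nrf1, and so switch on oxidative metabolism genes. Nrf1 in turn drives nuclear genes of the respiratory chain and Tfam, which packages mitochondrial DNA and helps to start its transcription. Muscleblind proteins bind short YGCY elements in pre-mRNA and in 3' UTRs, where they influence splicing, localisation and stability.

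There were 343554 tags in the WT table and 476543 in the Mbnl1 KO table. Tags whose reference sequence is at least 70% one base, called single-base tags, were 44.0% of WT and 17.0% of Mbnl1 KO tags, and their part in the ratios was not tested beyond leaving them out. Each table runs through all chromosomes several times, in 3 sorted stretches of lines in WT and 6 in Mbnl1 KO. No label ties these stretches to mice, so they were not used as replicates. Stretches 4 to 6 of the Mbnl1 KO table shared 22.6 to 43.6% of their positions with one another, against 0.946 to 21.0% for the other pairs in that table. Across genotypes, Mbnl1 KO stretch 1 and WT stretch 3 shared 16.5 to 16.6% of their positions, whereas the other pairs without the small Mbnl1 KO stretch 2 shared 1.11 to 5.51%. The 9 muscle fibre markers all had tags in both tables, 940 in WT and 3362 in Mbnl1 KO when summed, a ratio of 2.58 (2.40 to 2.77) after scaling to all tags of each table. Fat markers had 5 WT and 35 tags (Adipoq 1 and 12, Plin1 0 and 1, Fabp4 4 and 22) in Mbnl1 KO, with a ratio of 5.05 (1.97 to 16.5), and their part in the results was not tested. Endothelial markers had 37 and 87 tags (Pecam1 16 and 18, Cdh5 13 and 55, Kdr 8 and 14), leukocyte markers 14 and 16, peripheral nerve markers 6 and 14, and cardiac markers 5 and 3, with Nppa at 0 in both tables. Over Mbnl1 itself, the exon with the start codon (chr3:60332678-60333726) had 5 WT and 2 Mbnl1 KO tags, too few to check the genotype label.

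Mbnl2 tags over the 9 genes were more frequent in the Mbnl1 KO table, and Ppargc1b contributed more of that difference than the other 8 genes together. Over the set there were 116 tags in WT, or 338 tags per 1000000 tags of the table (ppm), and 268 in Mbnl1 KO, or 562 ppm. The Mbnl1 KO/WT ratio of these rates was 1.67 (95% Clopper-Pearson interval 1.33 to 2.09). Ppargc1b alone supplied 70 of the Mbnl1 KO tags and 8 of the WT tags. Without it, 108 WT and 198 Mbnl1 KO tags remained, with a ratio of 1.32 (1.04 to 1.69). Scaled to the tags that lie on protein-coding genes instead of all tags, the summed ratio was 1.03 (0.83 to 1.30), the median of all genes with at least 20 tags fell to 1.08, and among the members with WT tags only Ppargc1b, at 3.91 (1.88 to 9.42), kept an interval above 1. The ratios of Esrrb, Esrrg, Ppard and Nrf1 lay below 1 on that scale, at 0.86, 0.87, 0.97 and 0.68, and that of Ppargc1a was the lowest, at 0.42 (0.20 to 0.89), with an interval wholly below 1. A higher Mbnl2 level, more RNA of a gene per cell and more cells that express it could each add tags, and these cannot be told apart in a merged muscle lysate. A rise shared by all genes need not change a rate scaled to all tags. Such rates also depend on what else each table holds, such as single-base tags, 44.0% of WT and 17.0% of Mbnl1 KO tags. That part was not tested beyond leaving these tags out.

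The set was read against all 3885 protein-coding genes with at least 20 tags over both tables. Their median ratio was 1.75, with quartiles of 1.12 and 2.68, and 79.9% of them had a ratio above 1. Of the 9 genes, 6 reached 20 tags, and their median ratio was 1.40. Only Ppargc1b among these 6 had a ratio of 2 or more, and none had a ratio of 0.5 or less. Over all genes with at least 20 tags, 41.6% had a ratio of 2 or more, 3.76% had a ratio of 0.5 or less, and 38.6% had an interval wholly above 1. Among all 9 genes, the interval lay wholly above 1 at Ppargc1b and Esrra.

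**Figure D1:**
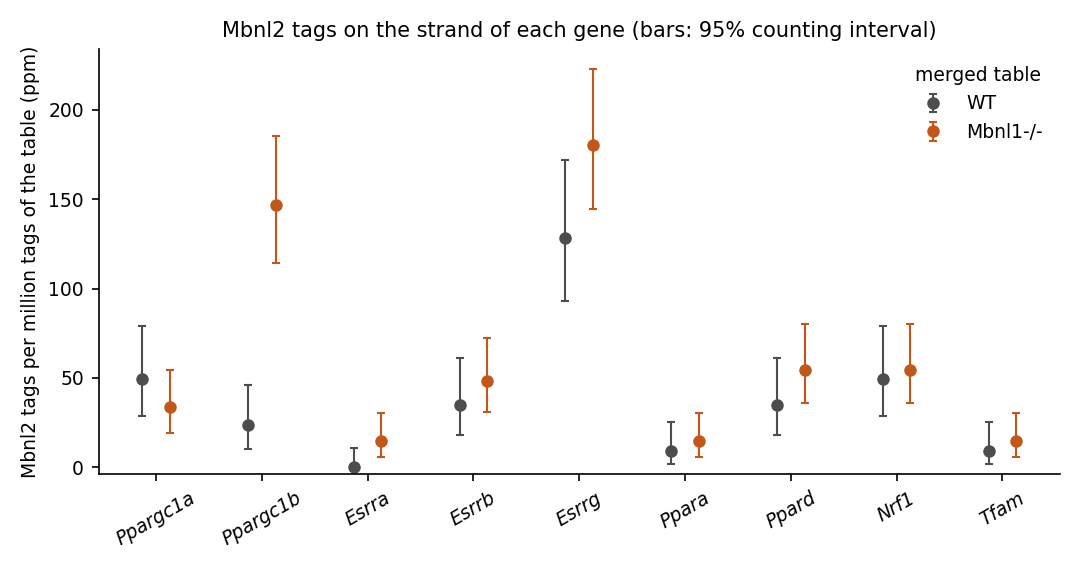
Mbnl2 tags on the strand of each of the 9 genes, in tags per 1000000 tags of the merged table (ppm, vertical axis), for WT (grey) and Mbnl1-/- (orange). Points are 1 table each and bars are 95% Clopper-Pearson intervals. The intervals of the 2 tables are apart at Ppargc1b, 23.3 against 147 ppm, and overlap at the other genes.

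The coactivators differed most from each other. Ppargc1b, which encodes PGC-1β, lies on the minus strand at chr18:61457790-61560085 in mm9. It had 8 tags in WT (23.3 ppm, interval 10.1 to 45.9) and 70 in Mbnl1 KO (147 ppm, 115 to 186). The ratio was 6.31 (3.03 to 15.2), and 96.3% of the genes with at least 20 tags had a lower one. With single-base tags left out of counts and totals it was 4.03 (1.93 to 9.71), above 94.4% of genes, 28% of which then had a ratio of 2 or more. The 8 WT tags lay at 8 positions and the 70 Mbnl1 KO tags at 48. Of these tags, 5 in WT and 6 in Mbnl1 KO lay at positions found in both tables. In the sorted stretches, the rate ran from 7.16 to 42.5 ppm in WT and from 107 to 187 ppm in Mbnl1 KO, so that every Mbnl1 KO stretch was above every WT stretch. These stretches are not independent, since positions recur among them, and they do not stand for mice. Some rates rest on very few tags, 1 in WT stretch 2 and 2 in Mbnl1 KO stretch 2.

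Nearly all Ppargc1b tags were intronic, 7 in WT and 67 in Mbnl1 KO, with a ratio of 6.90 (3.17 to 17.8). Over the 2474 protein-coding genes with at least 20 intron tags, 22% had a ratio of 2 or more, the median was 1.30, and 98.8% lay below the ratio of Ppargc1b. Intron 1, which is 17.8 kb long, held 5 WT and 42 Mbnl1 KO tags, and intron 2, at 59.1 kb, held 1 and 15. The coding exons had 1 and 3 tags, and the 547 nt of annotated 3' UTR had none in either table. On the opposite strand there were 6 WT and 19 Mbnl1 KO tags, so the share of tags on the gene's own strand was 57.1% in WT and 78.7% in Mbnl1 KO.

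The densest site in Ppargc1b lies in intron 1 at chr18:61557489-61557512, where the Mbnl1 KO table had 7 tags of 20 to 24 nt and the WT table had none. It sits inside the interval of an annotated microRNA gene, AC116595.1 (chr18:61557467-61557579), which the annotation places on the opposite strand and which had no tags there in either table. All 7 tags began 2573 or 2574 nt from the gene start. The annotation used here names no microRNA on the strand of Ppargc1b at this site, but it may be incomplete. Whether the 7 tags came from a microRNA or from the host intron was not tested, so they cannot be read as an intronic Mbnl2 site. Leaving them out, Ppargc1b kept 8 tags in WT and 63 in Mbnl1 KO, and its ratio was 5.68 (2.71 to 13.7). A second cluster at chr18:61556939-61557007, also in intron 1, had 6 Mbnl1 KO tags and no WT tag.

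Ppargc1a, which encodes PGC-1α and lies on the minus strand at chr5:51845488-51958964, did not follow its paralogue. It had 17 WT tags (49.5 ppm) and 16 Mbnl1 KO tags (33.6 ppm). The ratio was 0.68 (0.32 to 1.43), an interval that holds 1 when scaled to all tags but not, as given above, when scaled to tags on protein-coding genes, and 8.29% of the genes with at least 20 tags had a lower ratio. The ratios of its regions lay on either side of 1, but the interval of the 3' UTR ratio holds 1. In the 3' UTR the tags numbered 3 in WT and 10 in Mbnl1 KO (ratio 2.40, 0.62 to 13.6), whereas in the introns they numbered 14 and 6 (ratio 0.31, 0.10 to 0.86). Of the 2474 genes with at least 20 intron tags, 37 had a lower ratio. Of the 17 WT tags, 7 were single-base tags, against 2 of the 16 Mbnl1 KO tags. With single-base tags left out of the counts and the totals, Ppargc1a had 10 and 14 tags and a ratio of 0.67 (0.28 to 1.69). Antisense tags were also fewer in the Mbnl1 KO table, 5 against 12. Over the introns they numbered 12 in WT and 4 in Mbnl1 KO (ratio 0.24, 0.06 to 0.79), so the lower intron count was not particular to the gene's strand.

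Of the Ppargc1a clusters, those with at least 5 tags were of opposite kinds, and both are printed because they show what a single-base pile and a motif-bearing site look like. Each sequence is 30 nt of mm9 around the highest coverage, on the strand of the gene, with every TGCT or TGCC and every match to CGCT or CGCC (together the YGCY elements, written as DNA) in capitals. The site in the 3' UTR, in exon 13, had 1 WT and 4 Mbnl1 KO tags (ratio 2.88, 0.29 to 142). The intronic site had 5 WT tags and 1 Mbnl1 KO tag, all of them single-base tags, and its sequence is a run of A.
Ppargc1a 3' UTR, chr5:51846871-51846900: aTGCTTGCTcaagtgtttggcttattattt
Ppargc1a intron, chr5:51956072-51956101: aaaaaaaaaaaaaaaaaaaaaaaaacaaaa

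**Figure D2:**
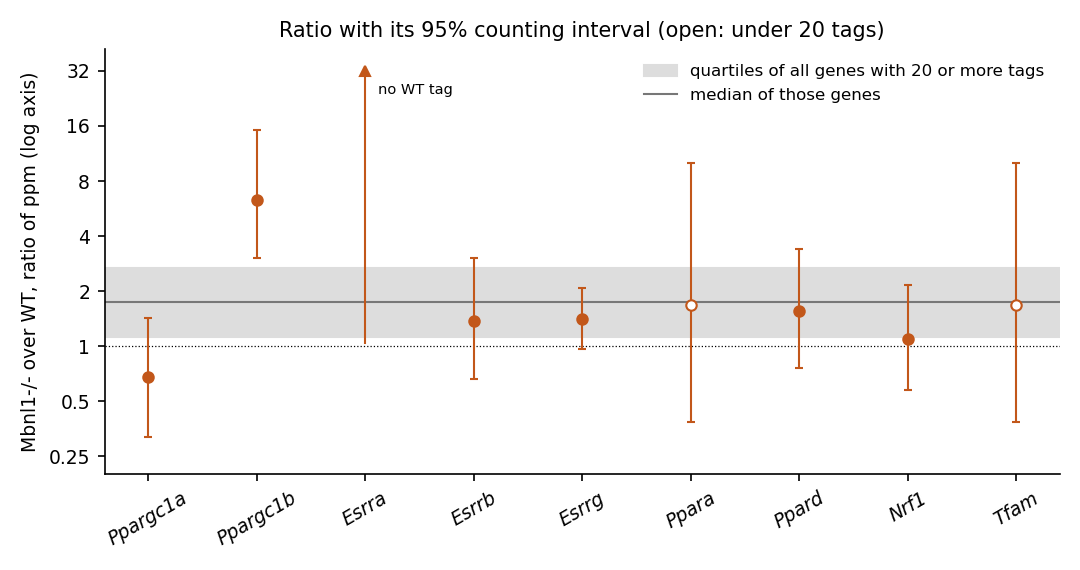
Mbnl1-/- over WT ratio of ppm (log axis) for each gene, with its 95% interval. The line and the grey band mark the median, 1.75, and the quartiles, 1.12 and 2.68, of all genes with at least 20 tags. Ppargc1b at 6.31 lies above the band, Ppargc1a at 0.68 below it, Esrra has no WT tag, and open points stand for genes with fewer than 20 tags.

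Among the estrogen-related receptors, Esrrg carried the most tags and Esrra the fewest. These orphan receptors need no ligand and are the main partners of the PGC-1 coactivators at genes of oxidative phosphorylation. Esrrg, which is abundant in oxidative fibres, lies on the plus strand at chr1:189432670-190038764 and is the longest of the 9 genes. It had 44 WT tags (128 ppm, 93.1 to 172) and 86 Mbnl1 KO tags (180 ppm, 144 to 223), and the ratio was 1.41 (0.97 to 2.08). Counted only from tags of at least 2 reads it was 2.24 (1.05 to 5.48), where the median of all genes was 1.49, and over the longest coding transcript alone it was 2.63 (1.43 to 5.14). The split by region was uneven. Its 3' UTR had 6 WT and 32 tags in Mbnl1 KO, with a ratio of 3.84 (1.59 to 11.2), whereas its introns, 600 kb in all, had 38 and 51, a ratio of 0.97 (0.62 to 1.51). Per kb, the 3' UTR of Esrrg had 4.66 ppm in WT and 17.9 in Mbnl1 KO, against 0.184 and 0.178 in its introns. A ratio of 3.84 was not unusual for a 3' UTR, since 86.7% of the 866 genes with at least 20 tags in the 3' UTR had a ratio of 2 or more there and their median was 3.24.

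The strand of the tags differed between these regions. Over the 3' UTR of Esrrg, the opposite strand had 1 WT tag and no Mbnl1 KO tag. Over its introns, the opposite strand had 35 WT and 40 Mbnl1 KO tags, so that the gene's own strand held only 52.1% of the WT and 56.0% of the Mbnl1 KO intron tags. An even split lies within the interval of both shares (40.0 to 63.9 and 45.2 to 66.4).

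Esrrg held 4 of the 10 clusters of at least 5 tags in the 9 genes, and they are printed to set its 3' UTR sites beside an intronic one. The largest, at chr1:190036902-190036961, had 1 WT and 10 Mbnl1 KO tags (ratio 7.21, 1.03 to 313) at 7 positions. The next in the 3' UTR, at chr1:190037358-190037389, had 1 and 5 tags (3.60, 0.40 to 170). Another, at chr1:190037293-190037324, had 2 and 3 tags (1.08, 0.12 to 12.9). By contrast, the cluster at chr1:189820665-189820699 in an intron had 7 WT tags and no Mbnl1 KO tag, all of them single-base tags. Capitals mark the same 4 elements.
Esrrg 3' UTR, chr1:190036905-190036934: gttccatgttTGCTgCGCTtttctgaactt
Esrrg 3' UTR, chr1:190037356-190037385: actatTGCTactttgtgtgcgttaagcaaa
Esrrg 3' UTR, chr1:190037293-190037322: agatgttgttattaactCGCTctgtgttgt
Esrrg intron, chr1:189820667-189820696: caaaaaaacaaaaaaaaaaaaacaaaaaaa

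**Figure D3:**
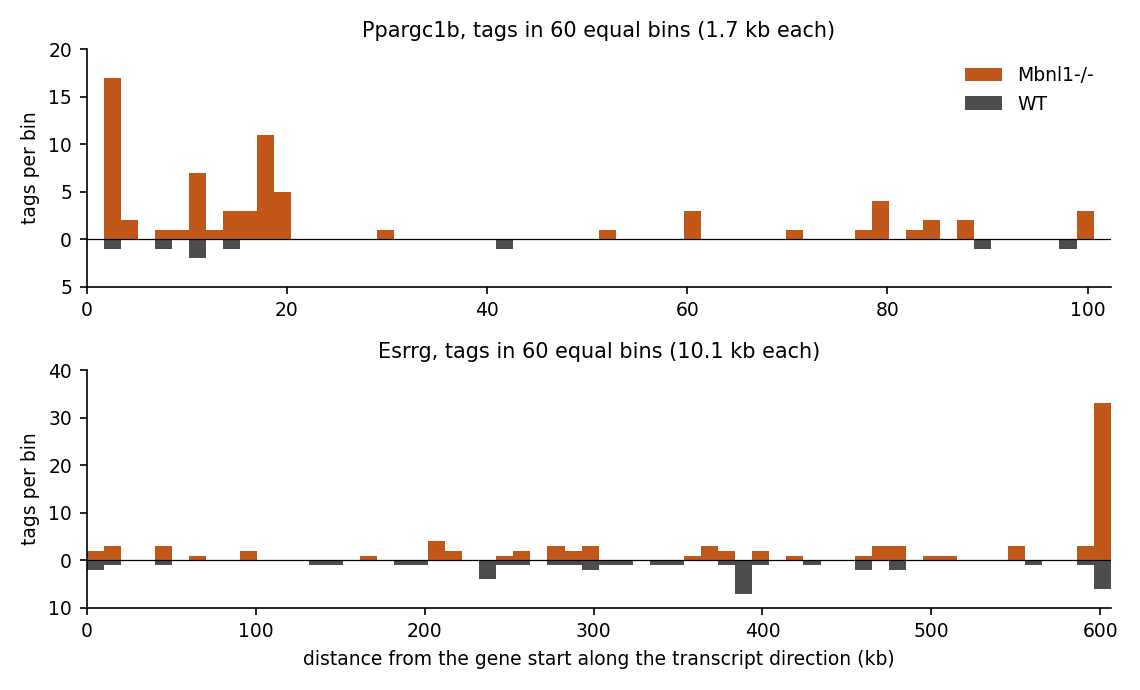
Tags along Ppargc1b (top) and Esrrg (bottom), counted in 60 equal bins by distance from the gene start in kb, with Mbnl1-/- above the axis and WT below it. Ppargc1b tags of the Mbnl1-/- table gather in the first intron, with 42 against 5 in WT, and Esrrg tags at the end of the gene, where the 3' UTR has 32 against 6.

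Esrra, which encodes ERRα, the receptor through which PGC-1α raises its own target programme, had no WT tag and 7 Mbnl1 KO tags (14.7 ppm). A count of 0 in WT allows up to 3 tags, or 8.73 ppm. The lower bound of the interval of its ratio was 1.04, and 0.69 with single-base tags left out of the totals. The gene is short (chr19:6985467-6996303, minus strand), and 3 of its tags lay in the 3' UTR, 3 in introns and 1 in the 5' UTR. The 3 tags of the 3' UTR shared 1 position, at chr19:6985515-6985535, where Esrra overlaps the end of Trmt112 on the other strand. Another 2 tags shared 1 intronic position. The sequence of the 3' UTR site is printed because it held the most tags of the gene.
Esrra 3' UTR, chr19:6985510-6985539: ttTGCTgcaaagagaaacCGCTtttggttt
Esrrb (chr12:87702067-87862578, plus strand), best known for its role in embryonic stem cells, had 12 WT tags (34.9 ppm) and 23 Mbnl1 KO tags (48.3 ppm), and the ratio was 1.38 (0.66 to 3.05). Counted only from tags of at least 2 reads it was 3.73 (0.53 to 162), from 1 WT and 10 Mbnl1 KO tags, and without Mbnl1 KO stretch 1 it was 0.99. Of all its tags, 11 in WT and 22 in Mbnl1 KO were intronic, and 1 and 1 lay in the 3' UTR. The opposite strand of Esrrb had 11 WT and 7 Mbnl1 KO tags, and 5 tags in each table were single-base tags.

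The PPARs are nuclear receptors that bind fatty acids and turn on genes of fat uptake and oxidation. Ppard, the most expressed of them in skeletal muscle, lies on the plus strand at chr17:28369699-28438414. It had 12 WT tags (34.9 ppm) and 26 tags (54.6 ppm) in Mbnl1 KO, with a ratio of 1.56 (0.76 to 3.40). From tags of at least 25 nt the ratio was 3.90 (1.10 to 21.0), where the median of all genes was 3.12 and 66.5% had a ratio of 2 or more, and from tags of at least 2 reads it was 0.50 (0.19 to 1.34). The introns of Ppard had 9 and 23 tags, 7 and 18 of them in intron 2, and the 3' UTR had 3 and 3. On the opposite strand of Ppard there were 11 WT tags and none in the Mbnl1 KO table. Its one cluster of at least 5 tags, with 1 WT and 4 Mbnl1 KO tags at chr17:28393024-28393055 in intron 2, is printed as an intronic site with a YGCY element and no single-base tag.
Ppard intron 2, chr17:28393024-28393053: aaccttcctggctTGCTtttggcaggtgtg
Ppara, the receptor best known from liver (chr15:85565413-85633249, plus strand), had 3 WT and 7 Mbnl1 KO tags, all of them intronic, and a ratio of 1.68 (0.38 to 10.1). The opposite strand of Ppara had no WT and 5 Mbnl1 KO tags. These counts are too small to tell the tables apart.

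Nrf1 and Tfam showed no difference that the depth could resolve. Nrf1, nuclear respiratory factor 1 (chr6:29997988-30103458, plus strand), had 17 WT tags (49.5 ppm) and 26 tags (54.6 ppm) in Mbnl1 KO, with a ratio of 1.10 (0.58 to 2.17). Its introns had 14 and 22 tags and its 3' UTR 2 and 3. Of these, 9 of the 17 WT and 7 of the 26 Mbnl1 KO tags were single-base, and the only cluster of at least 5 tags in Nrf1, at chr6:30063745-30063779 in intron 6 with 5 and 4 tags, consisted of them. Tfam (chr10:70688212-70701028, minus strand) had 3 tags in WT and 7 in Mbnl1 KO, with a ratio of 1.68 (0.38 to 10.1). It was the member with the highest share in the 3' UTR, with 2 of its 3 WT tags and all 7 Mbnl1 KO tags. Its sites with 3 or more tags are printed because they account for most of the tags on this mitochondrial DNA factor. The first had 2 WT and 2 Mbnl1 KO tags at 1 position, and the second 3 Mbnl1 KO tags at 1 position.
Tfam 3' UTR, chr10:70690864-70690893: agaagcTGCCaggctttcctagatgaaatg
Tfam 3' UTR, chr10:70688258-70688287: aaaccattcttttgcacagttaggaaTGCT

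Divided by gene length, the order of the genes differed between the tables. In WT, Tfam (0.681 ppm per kb), Ppard (0.508), Nrf1 (0.469) and Ppargc1a (0.436) came first, followed by Ppargc1b (0.228), Esrrb (0.218), Esrrg (0.211), Ppara (0.129) and Esrra (0). In Mbnl1 KO, Ppargc1b (1.44), Esrra (1.36), Tfam (1.15) and Ppard (0.794) led, followed by Nrf1 (0.517), Esrrb (0.301), Esrrg (0.298), Ppargc1a (0.296) and Ppara (0.217). The counting intervals of neighbours in these orders overlapped throughout. Ppargc1b was in place 5 in WT and in place 1 in Mbnl1 KO, while Ppargc1a was in place 4 and place 8.

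By region, the 9 genes together had 17 WT and 59 Mbnl1 KO tags in 3' UTRs, with a ratio of 2.50 (1.44 to 4.58). Without positions found in both tables, 5 WT and 46 Mbnl1 KO tags remained there. Their introns had 97 and 201 tags, a ratio of 1.49 (1.17 to 1.92). Without Ppargc1b, the introns had 90 and 134 tags and a ratio of 1.07 (0.82 to 1.42). The 3' UTR share of all member tags was 14.7% (8.78 to 22.4) in WT and 22.0% (17.2 to 27.5) in Mbnl1 KO, with overlapping intervals. Over all protein-coding genes the same share was 16.4% in WT and 29.8% in Mbnl1 KO, and the ratios were 2.94 in 3' UTRs and 1.24 in introns. Per kb, the 3' UTRs of the 9 genes held 2.20 ppm in WT and 5.50 in Mbnl1 KO, against 0.235 and 0.352 in their introns. Coding exons held 2 and 6 tags in all, 3 of the latter in Ppargc1b and 3 in Esrrg.

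The opposite strand was counted as a comparison for the introns. Over the introns of the 9 genes, 97 WT tags lay on the gene's strand and 85 on the other, so that 53.3% (45.8 to 60.7) were on the gene's strand. In Mbnl1 KO the counts were 201 and 89, or 69.3% (63.7 to 74.6). Over 3' UTRs the share was 73.9% (51.6 to 89.8) in WT and 96.7% (88.7 to 99.6) in Mbnl1 KO. All protein-coding genes had 50.7 and 62.8% in introns and 89.1 and 96.3% in 3' UTRs. The interval of the WT intron share of the set includes an even split.

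**Figure D4:**
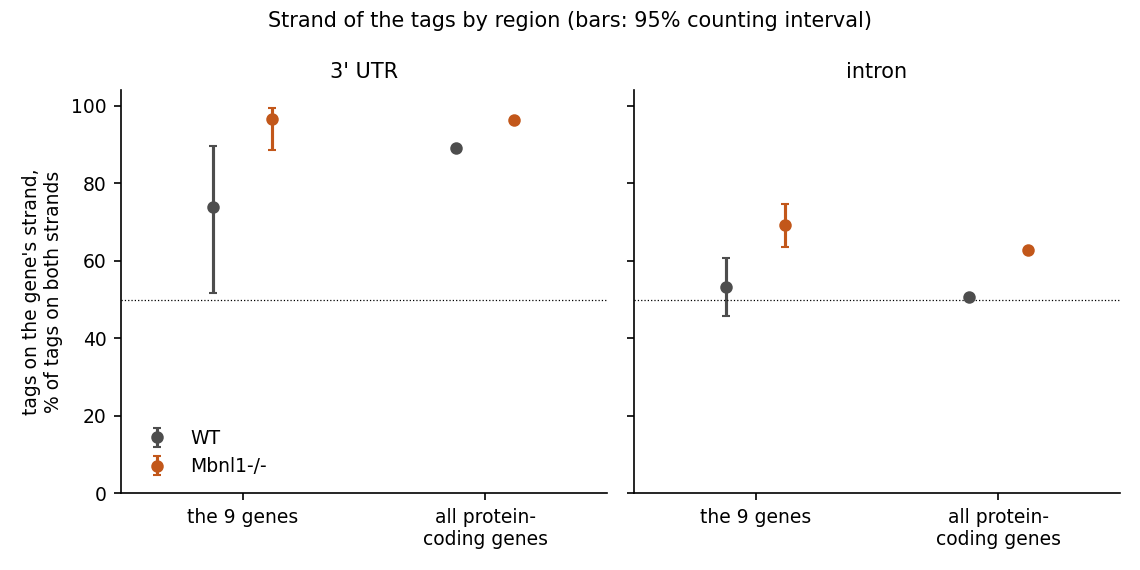
Share of tags on the gene's own strand among tags on both strands (percent, vertical axis), over 3' UTRs (left) and introns (right), for the 9 genes and for all protein-coding genes, with 95% Clopper-Pearson intervals. WT is grey and Mbnl1-/- orange. The WT intron share of the 9 genes, 53.3%, lies at the dotted line of an even split.

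The sites were also compared by sequence. Of the 10 clusters of at least 5 tags in the 9 genes, 4 lay in 3' UTRs and 6 in introns, 3 of the 10 consisted mostly of single-base tags, and 6 held at least 1 of the 4 elements on the gene's strand in the 30 nt around the highest coverage. Of the 7 that were not mostly single-base, 6 held an element (85.7%, 42.1 to 99.6), and the share among 5417 such clusters of all protein-coding genes was 66.9%. For the 4 in 3' UTRs, all 4 held one, against 71.1% of 3124 clusters in 3' UTRs of all protein-coding genes. Windows of 30 nt tiled over the members held an element in 27.7% of 746 windows in 3' UTRs and 26.9% of 39939 windows in introns. An element in a window is a match of letters and does not show a contact.

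Positions recurred between the tables at these genes. Of the 116 WT tags over the set, 41 lay at a position that the Mbnl1 KO table also held (35.3%), whereas 13.6% of all WT tags did. Of the 62 tags in WT stretch 3, 32 lay at a position of Mbnl1 KO stretch 1. The part of this overlap in the ratios was examined by leaving out every position found in both tables, as an alternative chosen after the data were seen, which left 75 tags in WT and 226 in Mbnl1 KO and gave 2.10 (1.61 to 2.77), while the median of all genes with at least 20 tags rose from 1.75 to 2.09. Within the Mbnl1 KO table, 86 of the 147 member tags of stretches 4 to 6 lay at a position held by more than 1 of these stretches. With identical tags counted once in each table, the summed ratio was 1.52 (1.20 to 1.94) and the median of all genes 1.56.

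**Figure D5:**
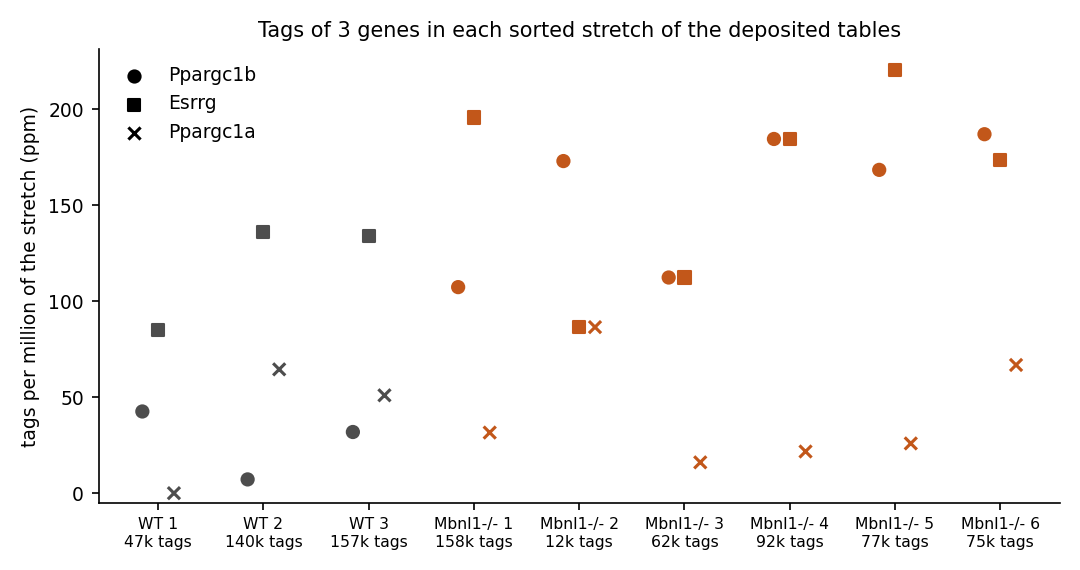
Tags per 1000000 tags of each sorted stretch of lines (ppm, vertical axis) for Ppargc1b, Esrrg and Ppargc1a, with the size of each stretch below it. The rate of Ppargc1b lies at 7.16 to 42.5 in the 3 WT stretches (grey) and at 107 to 187 in the 6 Mbnl1-/- stretches (orange), whereas those of Esrrg and Ppargc1a overlap.

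The partners and targets of these factors were counted in the same way, from lists chosen with earlier results of these data known. Of 68 further genes of the pathway, 36 had at least 20 tags, 34 of these had a ratio above 1, 21 had a ratio of 2 or more, and none had a ratio of 0.5 or less. Over all genes with at least 20 tags, 79.9% had a ratio above 1, 41.6% a ratio of 2 or more and 3.76% a ratio of 0.5 or less. The median ratio was 2.28 for the pathway genes and 1.75 for all genes. With single-base tags left out, 34 pathway genes had at least 20 tags and 11 of these had a ratio of 2 or more, a share near the 28% of all genes at that setting. Their median was then 1.78, and that of all genes 1.44.

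Coregulators had 10 of 14 genes with at least 20 tags, 4 of them at a ratio of 2 or more, and a median of 1.70, both near the 41.6% and 1.75 of all genes. Ncoa2, a p160 coactivator of nuclear receptors, had the most tags, with 41 in WT and 102 in Mbnl1 KO (ratio 1.79, 1.24 to 2.64). Med1, the Mediator subunit on which nuclear receptors dock, had 1 and 20 (14.4, 2.31 to 598), the acetyltransferase Ep300 7 and 25 (2.57, 1.08 to 7.05), Lpin1, a lipin that also coactivates PPAR targets, 14 and 42 (2.16, 1.16 to 4.29), and the coactivator Ncoa6 3 and 16 (3.84, 1.10 to 20.6). Without single-base tags the interval of the ratio held 1 at Ncoa2 (0.89 to 1.99), Ep300 (0.80 to 5.97), Lpin1 (0.75 to 2.80) and Ncoa6 (0.73 to 13.7). Sirt1, the deacetylase that activates PGC-1α, went the other way, with 11 WT tags and none in Mbnl1 KO, and the upper bound of the interval of its ratio was 0.29. Without single-base tags it had 2 WT tags and none in Mbnl1 KO, and that bound was 2.56.

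Other nuclear receptors had 10 of 19 genes with at least 20 tags, 5 of them at a ratio of 2 or more, near the 41.6% of all genes. Their median was 2.14, beside 1.75 for all genes. Rora, a clock receptor, had the most, 92 in WT and 306 in Mbnl1 KO (2.40, 1.89 to 3.06), or 1.93 (1.49 to 2.52) without single-base tags. Nr1d2, the REV-ERBβ repressor of the clock, had 22 and 117 (3.83, 2.42 to 6.35), 17 and 102 of them in its 3' UTR, and its relative Nr1d1 had 6 and 23 (2.76, 1.09 to 8.30), or 1.84 (0.73 to 5.53) without single-base tags. The thyroid hormone receptor gene Thrb had 28 and 111 (2.86, 1.87 to 4.49), of which 27 and 108 were intronic, and the glucocorticoid receptor gene Nr3c1 had 15 and 63 (3.03, 1.70 to 5.73). Nr2f2, which encodes COUP-TFII, had no WT tag and 11 Mbnl1 KO tags, and the lower bound of the interval of its ratio was 1.81, or 1.08 without single-base tags.

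The factors of mitochondrial DNA and of nuclear respiratory genes had few tags, and only Lrpprc, a regulator of mitochondrial mRNA, reached 20, with 9 in WT and 26 in Mbnl1 KO (2.08, 0.95 to 5.05). Yy1 had 3 and 13 tags (3.12, 0.86 to 17.1), and Nfe2l2, which encodes the antioxidant factor NRF2, 1 and 11 (7.93, 1.15 to 341), or 4.81 (0.68 to 209) without single-base tags. All 5 genes of mitochondrial fusion and fission had a ratio above 1, as did 79.9% of all genes with at least 20 tags. Their median was 2.50, beside 1.75 for all genes. The fusion gene Mfn2 had 32 and 111 tags (2.50, 1.67 to 3.83), 25 and 93 of them in the 3' UTR. The fission genes Fis1 and Dnm1l had 9 and 36 (2.88, 1.36 to 6.81) and 8 and 30 (2.70, 1.21 to 6.82). Without single-base tags Fis1 was at 1.92 (0.91 to 4.54), Dnm1l at 1.80 (0.81 to 4.55) and Mfn2 at 1.67 (1.12 to 2.55). None of the 5 genes then reached a ratio of 2, whereas 28% of all genes did. Opa1, which shapes the inner membrane, had 15 and 29 (1.39, 0.72 to 2.80).

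Target genes had 10 of 18 genes with at least 20 tags, 8 of them at a ratio of 2 or more, beside 41.6% of all genes, and a median of 3.48. Some were tagged mostly in the 3' UTR, with 21 and 82 tags there at Lpl, 9 and 42 at Pdk4 and 1 and 15 at Cycs. Others were not, with 1 and 1 at Atp5b and 9 and 39 at Cd36. Of genes with at least 20 tags in the 3' UTR, 86.7% had a ratio of 2 or more there, and their median was 3.24. The part of this in the list was not tested. The fatty acid transporter Cd36 had 25 and 128 tags (3.69, 2.39 to 5.92), lipoprotein lipase Lpl 25 and 94 (2.71, 1.73 to 4.40), and Pdk4, the kinase that shuts off pyruvate oxidation, 11 and 50 (3.28, 1.68 to 6.98). Vegfa, which drives vessel growth, had 7 and 38 (3.91, 1.73 to 10.4), Ucp2 5 and 32 (4.61, 1.78 to 15.2), and Atp5b of the ATP synthase 15 and 42 (2.02, 1.10 to 3.92). Hadhb, of fatty acid oxidation, had 2 and 22 (7.93, 1.95 to 69.6), the glucose transporter gene Slc2a4 2 and 19 (6.85, 1.65 to 60.6), and the fatty acid binding protein gene Fabp3 1 and 10 (7.21, 1.03 to 313). Cycs, which encodes cytochrome c, had 1 and 17 (12.3, 1.92 to 512), as did Cox4i1 of cytochrome c oxidase. Without single-base tags the interval held 1 at Atp5b (1.35, 0.73 to 2.61) and Fabp3 (4.81, 0.68 to 209), and Lpl was at 1.86 (1.18 to 3.05). Cd36, Lpl and Fabp3 are also used by fat or endothelial cells. The fat markers all had a higher rate in the Mbnl1 KO table, whereas of the endothelial markers Pecam1 had 46.6 ppm in WT and 37.8 in Mbnl1 KO, Kdr 23.3 and 29.4, and Cdh5 37.8 and 115, and the part of such cells was not tested.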

How the data were processed

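Reads were aligned by the authors to mm9 with BWA (version not given in the sources used here), likely PCR duplicates were taken out, and 3 mice were merged per genotype. The study's methods drop sequences under 20 nt, while the tables hold tags of 18 to 33 nt. Each line they deposited is a tag with a raw count of the reads collapsed into it, and the same tag can recur on lines of other sorted stretches. The 9 genes and the gene lists were chosen with earlier results of these data known. Tags overlapping a gene on its strand were counted with Python 3.11.15, NumPy 2.4.6, SciPy 1.17.1 and pandas 2.3.3, and scaled to all tags of the table. The 95% interval of a ratio was obtained by the exact Clopper-Pearson method on the share of its tags in Mbnl1 KO. At 343554 WT and 476543 Mbnl1 KO tags, a count of 0, taken as up to 3 tags, allows 8.73 and 6.30 tags per 1000000. With 1 table per genotype, no test was made. Where at least 5 tags of the gene's strand overlapped in a chain, both tables pooled, they formed a cluster.

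Named besides the 9 genes are, in each pathway list, the 2 genes with the most tags and every gene with a ratio of 2 or more and an interval above 1, or of 0.5 or less and an interval below 1, and, in each of the 9 genes, the 2 largest clusters of at least 5 tags. One gene that met this rule is not reported here. The smaller Esrra and Tfam sites, the 2 smaller Esrrg clusters and Opa1 were added after their values were seen. The counting was tested on simulated tags. Alternatives in scale, tag filters and regions were tried, and leaving out shared positions, sorted stretches, Ppargc1b or its microRNA site was added after the data were seen. Sequences were read from the mm9 genome, and none is printed for Ppargc1b.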

Additional observations from a re-analysis of the deposited data

How the results depend on the processing

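No paired analysis was possible because the mice of each genotype are merged, and for the same reason no mouse could be left out. The summed ratio of 1.67 was 2.31 with raw tags, 1.03 when scaled to tags on protein-coding genes, 2.10 without positions found in both tables and 1.32 without Ppargc1b, and leaving out each sorted stretch gave 1.57 to 1.94. Scaling to protein-coding tags also moved the median of all genes from 1.75 to 1.08. The count of members at a ratio of 2 or more, 1 as reported, was 4 with raw tags or without shared positions, 3 with at least 2 reads or at least 25 nt, 2 in the longest coding transcript or with both single-base tags and tags of 1 read left out, and 1 to 2 without each stretch. Over all genes the share at 2 or more, 41.6% as reported, was 62.9% with raw tags, 51.3% without shared positions, 31.1% with at least 2 reads and 66.5% at 25 nt. The 3' UTR share in WT, 14.7%, was 22.9% with at least 2 reads, 25.8% when single-base tags were also left out and 6.67% without shared positions, and 9.26 to 18.1% without each stretch. In Mbnl1 KO it was 22.0%, then 27.7 and 29.0% with those read filters, and 21.3 to 22.8% without each stretch. Clusters numbered 32 at 3 tags and 1 at 10 tags, and 11 pathway genes were at a ratio of 2 or more without single-base tags. The ratio of Ppargc1b stayed above 1 in all these settings, from 2.80 with single-base tags and single reads left out to 15.6 at 25 nt or more. Of 159 values of single members, 150 stayed within the interval first given. These intervals are wide, so this count says little about stability. The ratio of Ppara ran from 0.47 to 3.12 within an interval of 0.38 to 10.1. The cause of these shifts was not tested.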

Other observations

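The 5 kb past the annotated end of each of the 9 genes, on the same strand, held 7 WT and 10 Mbnl1 KO tags in all, a scaled ratio of 1.03 (0.35 to 3.19). Ppara had 1 and 5 of these tags, Ppargc1b 1 and 3, and Nrf1 3 and 1, while Esrra, Esrrg, Ppard and Tfam had none in either table. The opposite strand of the 9 genes held 91 tags in each table, a scaled ratio of 0.72 (0.53 to 0.97), and over all protein-coding genes the opposite strand had a ratio of 0.77 (0.76 to 0.78).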
